A study of Mus musculus with 12 samples.

Results

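The Hox genes are the 39 members of the mouse HoxA, HoxB, HoxC and HoxD clusters, taken by symbol from the 20409 genes of the ORFtag screen tables. HoxA held 11 of them, HoxB 10, HoxC 9 and HoxD 9, and all 39 were followed in every library. In ORFtag, a retroviral cassette integrates in the genome that carries a PGK promoter, NeoR resistance, the coding sequence of a tag and, last, a splice donor, and its transcript splices onto the next exon downstream, so that the endogenous protein is made with the tag near its N terminus. The cells were diploid mouse embryonic stem cells of the AN3-12 line, originally haploid, wild-type apart from a reporter, and each reporter line was 1 clone. The activator screen used TetR, which binds TetO sites in DNA, as the tag. Its reporter was 7xTetO-pMYLPF-Puro-IRES-GFP in a locus on chromosome 15 and GFP-positive cells were sorted. The repressor screen used TetR again, its reporter pEF1-BFP-7xTetO-pPGK-Puro-IRES-GFP lay in that same locus, and GFP-negative cells were sorted. The PTGR screen, named for post-transcriptional gene regulation, used λN, a peptide that holds on to boxB hairpins of an RNA, with the reporter Puro-IRES-GFP-10xBoxB at a random site, in a line that also carried an inducible Cre. PTGR cells were sorted repeatedly for low GFP, then treated so that Cre removed the boxB sites, and sorted a last time for higher GFP. All cells, unsorted ones included, had been selected with G418. Each screen had 2 sorted and 2 unsorted replicates, and the 6 unsorted libraries together were the background of every comparison, so the 3 comparisons share it.

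Hox genes encode homeodomain transcription factors that give cells their position along the head-to-tail axis of the embryo. In each cluster the genes lie in a row on 1 strand, in the order in which they act along the body, with low group numbers (such as Hoxa2) used in the hindbrain and neck and high ones (Hoxa13, Hoxd13) in the tail, genitals and distal limb. Many Hox proteins bind DNA together with TALE homeodomain cofactors of the Pbx and Meis families. In undifferentiated embryonic stem cells the clusters are mostly silent and carry Polycomb marks. The cassette brings its own promoter, so a Hox gene need not be active to be tagged, but an insertion must lie upstream of a splice acceptor of the gene.

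An insertion here is a unique position (chromosome, base, strand) in a library, assigned to the exon, first exons left out, that comes next downstream within 200 kb. The lists hold positions and no read or cell numbers, so a clone that grew counts once. The sorted libraries held 14705 to 60980 such insertions and the unsorted ones 54088 to 233799, with 1022126 in the background. Over the 12 libraries 393 insertions were assigned to Hox genes, 388 of them to an exon numbered 2. First exons have no acceptor, so a fusion spliced to exon 2 lacks any part of the protein that the first exon encodes. The cassettes were a mix of all reading frames, and not every cassette is in frame with a given exon. Which Hox insertions made an in-frame fusion was not tested. All 393 assigned acceptors are present in the GENCODE M21 annotation of mm10 (GRCm38).

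The sequence at these acceptors marks the point at which the tag would join each Hox protein. It is shown for the Hox genes on which the counts turn, read from the mm10 genome on the coding strand, with 20 intron bases in lower case and the first 10 exon bases in capitals.
Hoxa2 (chr6:52163616-52163645, minus strand): gttggtttccctttctgcagAATCCCTGGA
Hoxb1 (chr11:96366791-96366820, plus strand): tctccctgccccgcccctagCGAAGGTGTC
Hoxb9 (chr11:96274604-96274633, plus strand): tatcgctacttctctttcagCCAACCCCTC
Hoxc12 (chr15:102938259-102938288, plus strand): tgcggttcatctccacccagGCGCGCCCTG
Hoxc13 (chr15:102927149-102927178, plus strand): tgccttctctctccctctagACGTGGTTCC
Hoxd13 (chr2:74669866-74669895, plus strand): cctgctgttgtttatgctagGAGATGTGGC
Hoxa13, as assigned (chr6:52260626-52260655, minus strand): ggcggcacgggcggcggccgGCGGCGGCGG
Hoxa13, next acceptor ending in AG (chr6:52259139-52259168, minus strand): ccttcttccttatcttacagACGTCGTCTC

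For the 31 Hox genes with an insertion in any library, 30 of the most used acceptors had the AG that ends an intron, after 9 to 17 pyrimidines in the 17 bases before the last 3 intron bases. The exception was Hoxa13, where 142 of 143 insertions were assigned to an annotated exon that starts after a gap of 1 bp inside a GC-rich repeat of the first exon, with 5 pyrimidines and no AG. The shortest intron before the other 30 acceptors was 52 bp (Hoxb8) and the median was 1067 bp. The acceptor of Hoxa13 that does end in AG lies 1487 bp further downstream and follows an annotated intron of 715 bp. The distances given below for Hoxa13 are therefore 1487 bp short of that acceptor, against a median distance of 178820 bp for its background insertions.

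Hox genes held few insertions in unsorted cells, and most of these were assigned to genes at or near the 5′ ends of the clusters. In the background, 330 insertions fell at Hox genes, which is 3.23 per 10000 (95% Wilson interval 2.90 to 3.60). Per library the share was 2.77 to 3.50 per 10000 in the 6 unsorted libraries, with a mean of 3.19 ± 0.285 (SD, n = 6). The median Hox gene had 2 background insertions, against 15 over all genes in the tables. At least 1 background insertion was found at 30 of 39 Hox genes (76.9%) and at 18268 of all 20409 genes (89.5%). No background insertion was found at Hoxa5, Hoxa9, Hoxb2, Hoxb6, Hoxc5, Hoxd1, Hoxd4, Hoxd8 and Hoxd12, and of these only Hoxa5 had an insertion in a sorted library. Another 21 Hox genes had 1 to 4 background insertions, 4 had 6 to 10 and 5 had more.

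**Figure D1:**
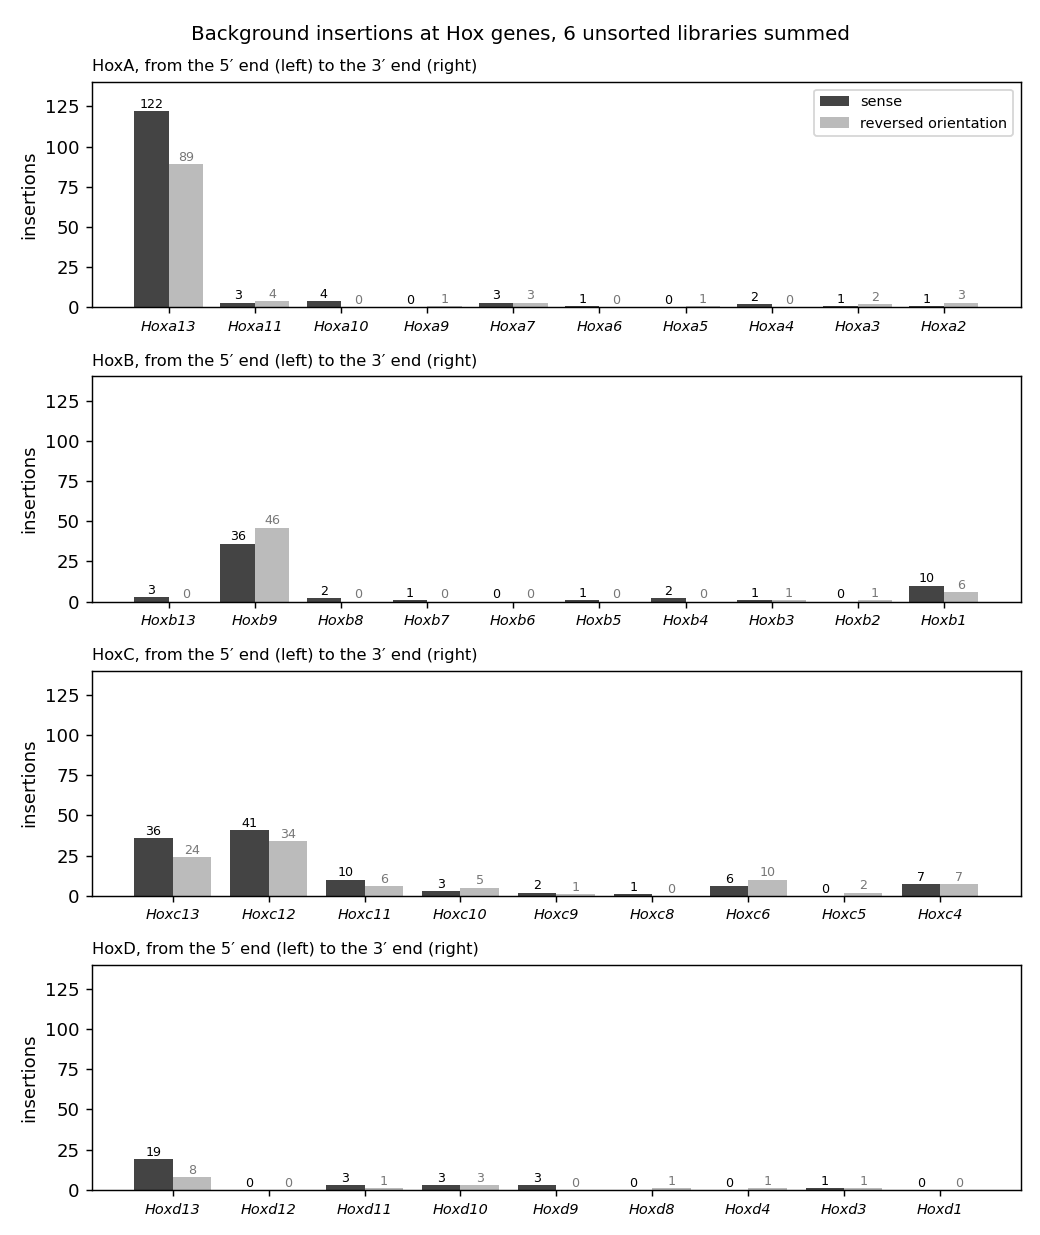
Insertions at each of 38 Hox genes summed over the 6 unsorted libraries (y axis, number of unique positions), with genes on the x axis in cluster order; dark bars are insertions in the orientation that tags the gene and grey bars those assigned after the strand was reversed. Hoxa13 stands at 122, Hoxc12 at 41, Hoxb9 and Hoxc13 at 36 and Hoxd13 at 19, and no other Hox gene is above 10.

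The 5 Hox genes with the most background insertions held 254 of the 330, or 77.0%. Hoxa13, which patterns the distal limb and the genital tubercle, had 122, the most in HoxA. In HoxC, Hoxc12 had 41 and Hoxc13, which is needed for hair and nails, had 36. Hoxb9, a gene of the thoracic region, had 36, the most in HoxB. Hoxd13, a gene of the digits, had 19, the most in HoxD. Hoxa13, Hoxc13 and Hoxd13 are the outermost genes at the 5′ side of their clusters, and Hoxb9 has a long gap before it, between Hoxb13 and the rest of HoxB. Hoxb13 itself, alone beyond that gap, had 3.

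The length of genome from which an insertion would be assigned to a gene differed in the same way. Counted from the GENCODE M21 acceptors and at most 200 kb for each acceptor, this length was 11110 bp for the median Hox gene and 81207.5 bp for the median of 20330 genes. It was 201487 bp for Hoxa13, 200000 bp for Hoxc13 and for Hoxd13, and 78651 bp for Hoxb9, and the shortest was 3793 bp for Hoxa5. Per 10 kb of this length, the median Hox gene had 1.80 background insertions and the median gene overall had 1.98, with quartiles of 0.470 and 6.16. The low counts inside the clusters thus went with short lengths, while the number per length was near that of the median gene. Hoxc12 differed: its 41 insertions came from 11110 bp, or 36.9 per 10 kb, more than at 98.0% of all genes.

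Within those lengths the insertions were unevenly placed. At Hoxa13, the largest group of positions no more than 2 kb apart held 98 of its 122 background insertions in 12470 bp (chr6:52434237-52446706), 173601 to 186070 bp from the assigned acceptor, where GENCODE M21 annotates no gene. Of the 6 unsorted libraries, 5 had insertions in this stretch and PTGR unsorted replicate 2 had none. That library had the fewest insertions of the 6, but its share at Hoxa13 was low as well. It was 0.185 per 10000, against 0.904 to 1.45 in the other 5, and the cause was not tested. In the reversed assignment the same stretch held 65 background insertions. At Hoxb9, the largest group held 25 of 36 background insertions in 5916 bp (chr11:96248498-96254413), over the noncoding gene Gm53 and the pseudogene Gm11539, with insertions from all 6 unsorted libraries and 31 in the reversed assignment. At Hoxc12, all 41 lay in a group of 9309 bp (chr15:102928574-102937882) that runs from the last bases of Hoxc13 into the intron of Hoxc12, again with all 6 unsorted libraries and 34 reversed.

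**Figure D2:**
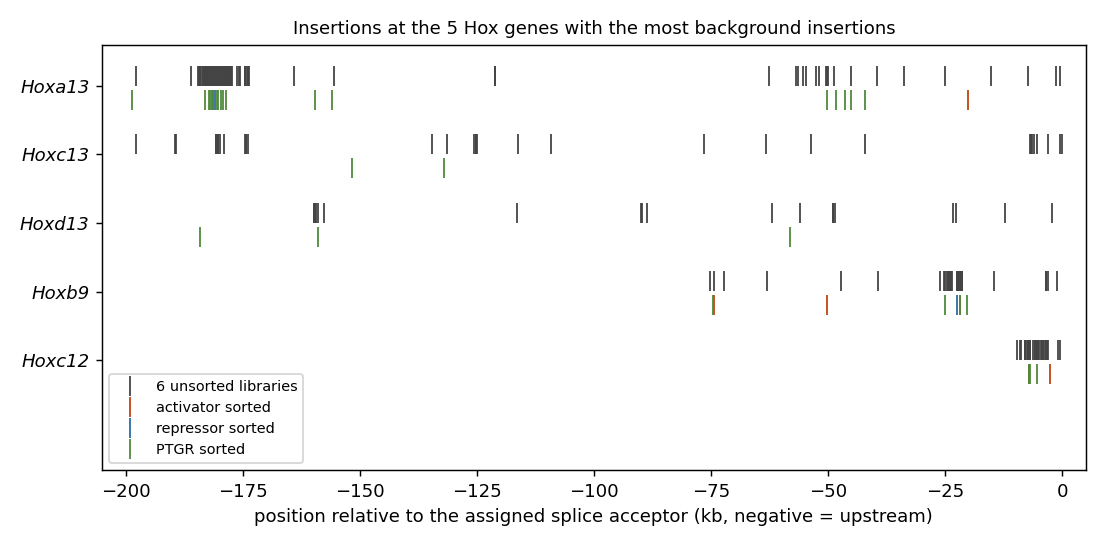
Position of every insertion relative to the assigned splice acceptor (x axis, kb, negative values upstream) for the 5 Hox genes with the most background insertions; the upper row of each gene is the 6 unsorted libraries and the lower row the sorted libraries coloured by screen. The dense band of Hoxa13 lies 173601 to 186070 bp away, that of Hoxb9 20210 to 26125 bp away, and all insertions of Hoxc12 are within 9704 bp.

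In unsorted cells, insertions at the Hox genes were found in both orientations. The sense share was 55.6% (95% Wilson interval 51.6% to 59.6%), from 330 sense and 263 reversed insertions, against 50.2% over all genes. By library it ran from 50.9% to 68.2%. At Hoxa13 the counts were 122 and 89, at Hoxc12 41 and 34, at Hoxc13 36 and 24, at Hoxd13 19 and 8, and at Hoxb9 36 and 46. Hoxb9 was the only one of these 5 with fewer sense than reversed insertions, and its pooled interval (33.7% to 54.7% sense) included an even split. The libraries differed, however. Sense and reversed counts at Hoxb9 were 3 and 13, and 4 and 13, in the activator unsorted libraries. They were 13 and 7, and 10 and 8, in the repressor unsorted libraries. In the PTGR unsorted libraries they were 5 and 4, and 1 and 1. The pooled interval does not cover this spread.

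The activator comparison asked which proteins raise GFP when TetR brings them to a promoter that is inactive by itself. Of 39 Hox genes, 1 was called above background: Hoxa2, which sets the identity of the hindbrain and the second branchial arch. A gene was tested with at least 3 sorted insertions, with Fisher's exact test (one-sided) on summed counts, and called at an adjusted p under 0.001 with a log2 odds ratio of at least 1. By this rule 132 of 2842 tested genes were called in the activator screen, or 4.64%, and the Hox genes gave 1 of 2 tested. With so few members tested, the share of Hox genes called cannot be set against that background.

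Hoxa2 (ENSMUSG00000014704, chr6:52162417-52164831, minus strand) had 2 insertions in activator sorted replicate 1 and 3 in replicate 2, against 0 in activator unsorted replicate 1 and 1 in replicate 2. The other 4 unsorted libraries had 0. Both activator sorted libraries were thus above every unsorted library, with 1.59 ± 0.630 per 10000 (SD, n = 2) against 0.00803 ± 0.0197 (SD, n = 6). That order needed only 1 insertion in each: a single one is 0.575 or 0.680 per 10000 there, above the highest unsorted value (0.0482). The log2 odds ratio was 7.31 with a standard error of 1.58, and the adjusted p of Fisher's exact test was 4.1e-06. Against the activator unsorted libraries alone the log2 odds ratio was 5.90 and the adjusted p 0.00037. The repressor sorted libraries had 0 and 0 and the PTGR sorted libraries 0 and 1. In the reversed assignment the activator sorted libraries had 0 insertions at Hoxa2, against 3 in the background.

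The 7 positions at Hoxa2 were followed 1 by 1. The gene has 2 exons and an intron of 640 bp. In activator sorted replicate 1 the insertions lay in the intron, at 216 and 217 bp from exon 2. In replicate 2, 1 lay in the intron at 366 bp and the others lay 1994 and 1995 bp from exon 2, which is 789 and 790 bp before the annotated start of the gene. The background insertion lay in exon 1, at 899 bp, and the PTGR sorted one in exon 1 at 999 bp. None of these positions was found in more than 1 library. The sequence around the sites is shown because the count turns on them, 30 bases on the strand of the gene with the listed base in capitals.
Activator sorted replicate 1, intron (chr6:52163828-52163857): atgaagaggttggggGaagccacaggcagg
Activator sorted replicate 1, 1 bp before it (chr6:52163829-52163858): gatgaagaggttgggGgaagccacaggcag
Activator sorted replicate 2, intron (chr6:52163978-52164007): atttgagttggaactGacctcctcttgtct
Activator sorted replicate 2, upstream (chr6:52165606-52165635): agagtggggtgggggAaggagagaggaaaa
Activator sorted replicate 2, 1 bp before it (chr6:52165607-52165636): tagagtggggtggggGaaggagagaggaaa

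The 5 activator sorted positions thus fell at 3 places, of which 2 held a pair of neighbouring bases. In the activator sorted libraries 4.13% and 4.15% of all insertions lay 1 bp after another on the same strand, against 1.25% to 1.93% in the 6 unsorted libraries. Counting positions 1 bp apart as a single insertion left Hoxa2 with 1 and 2 sorted insertions against 1 in the background, a log2 odds ratio of 6.62 with a standard error of 1.67, and an adjusted p of 0.0021 by Fisher's exact test, so the call at 0.001 was lost while the ratio stayed high. Whether each pair was 1 integration read at neighbouring bases or a pair of integrations was not tested. edgeR's quasi-likelihood test on the 2 sorted and 2 unsorted activator libraries gave a log2 fold change of 5.29 with an adjusted p of 0.031, and DESeq2 gave 6.08 with an adjusted p of 0.0059. With the replicate number as a block, which pairs each sorted library with the unsorted library of its number, edgeR gave 5.37 with an unadjusted p of 0.019 and an adjusted p of 0.93. Without activator sorted replicate 2, only 2 insertions were left and Hoxa2 could not be tested.

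**Figure D3:**
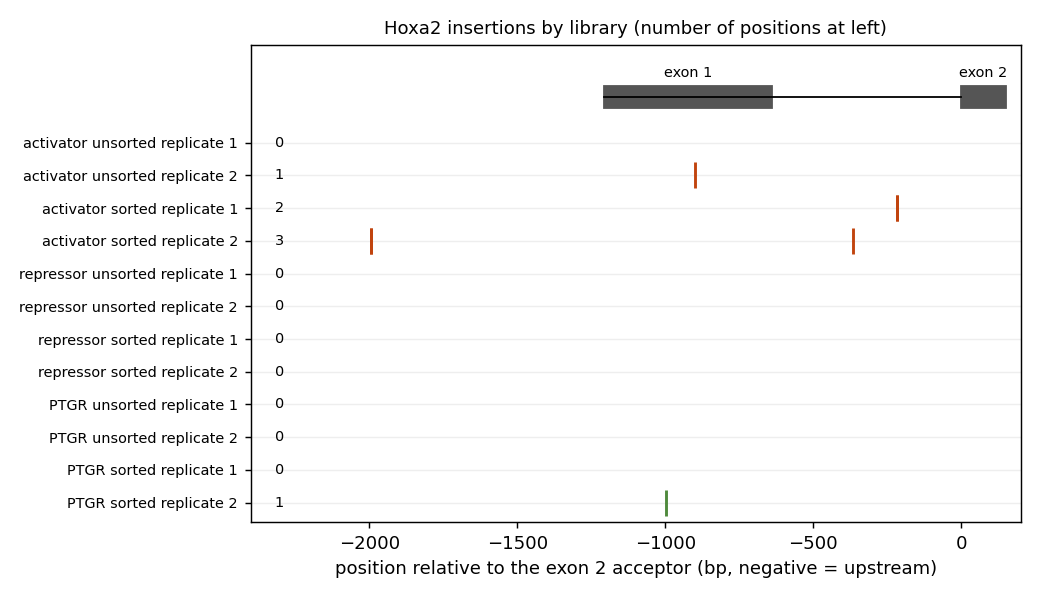
Insertions at Hoxa2 in each of the 12 libraries (rows) by position relative to the first base of exon 2 (x axis, bp, negative values upstream), with the number of positions at the left and the exons drawn at the top; the part of exon 2 that is drawn is cut off. The 2 activator sorted libraries hold 5 of the 7 positions, and neighbouring positions (217 and 216, 1995 and 1994 bp) overlap as 1 tick.

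Hoxb9 was the other Hox gene tested in the activator screen. It had 1 and 2 sorted insertions, 0.967 ± 0.555 per 10000 (SD, n = 2), against 0.346 ± 0.247 (SD, n = 6) in the unsorted libraries, where every library had at least 1. The log2 odds ratio was 1.41 with a standard error of 0.867 and an adjusted p of 0.86 (Fisher's exact test). Against the activator unsorted libraries alone it was 2.35 (adjusted p 0.44). Within 50 kb of the acceptor 1 of the 3 sorted insertions was left and the log2 odds ratio was -0.19. Both positions of activator sorted replicate 2 were also listed in another library, 1 in activator unsorted replicate 2 and 1 in PTGR sorted replicate 2.

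Below the minimum of 3, the activator sorted libraries held 1 or 2 insertions at further Hox genes. Hoxb1, which defines a segment of the hindbrain, had 2 in replicate 1 and 0 in replicate 2 against 10 in the background; both lay before the annotated start, 278 and 279 bp away, and were neighbouring bases too. Hoxc12 had 2 and 0, and Hoxa13 had 1 and 1. Hoxa11, Hoxb8, Hoxc4 and Hoxc6 had 1 each, and that of Hoxc6 was also listed in activator unsorted replicate 1. No member of HoxD had an activator sorted insertion, against 29 in the background, or 0.284 per 10000. A count of 0 allows up to 0.935 per 10000, which is above that background share, so it does not show fewer insertions.

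Taken over the family, activator sorted cells had more Hox insertions than unsorted cells. The share was 6.32 per 10000 (95% Wilson interval 3.53 to 11.3) in activator sorted replicate 1 and 5.44 (2.76 to 10.7) in replicate 2, above all 6 unsorted libraries. In replicate 2 this rests on Hoxa2, which gave 3 of its 8 insertions. Without Hoxa2, the share of replicate 2 was under that of the highest unsorted library (3.50). The sum was 19 insertions in activator sorted cells, 1.83 times the background share, with a log2 ratio of 0.87 and a counting error of 0.34, and the log2 ratio was 0.69 with positions 1 bp apart merged. Without Hoxa2, 14 insertions were left against 329 in the background. With all called genes left out of the totals too, the log2 ratio was 1.03 with a counting error of 0.39. The sorted total was then 21112 in place of 32102, so 1.03 cannot be set against 0.87. On the full totals, leaving out Hoxa2 lowers the ratio, since it held 5 of the 19 sorted insertions and 1 of the 330 in the background. At the 5 genes that hold most of the background the share was 2.18 per 10000 against 2.49, and at the other 34 it was 3.74 against 0.744. These 34 genes supplied 7 insertions in replicate 1 and 5 in replicate 2, of which Hoxa2 gave 5. Without Hoxa2, their counts were 7 in activator sorted cells against 75 in the background. The share of replicate 2 was then under that of the highest unsorted library (1.48). Since the 34 were separated by their low background counts, their ratio of 5.03 is a description: the same ratio over the 8769 other genes with at most 10 background insertions was 1.31. With positions 1 bp apart merged, the 34 genes had 9 activator sorted insertions and a ratio of 3.93. By cluster, the activator sorted counts against background were 9 and 139 in HoxA, 6 and 56 in HoxB, 4 and 106 in HoxC, and 0 and 29 in HoxD. By order in the clusters, genes of groups 1 to 3 had 8 against 16, groups 4 to 8 had 3 against 26, and groups 9 to 13 had 8 against 288. Of the 8 in groups 1 to 3, 5 were at Hoxa2 and 2 were the neighbouring pair at Hoxb1, and without Hoxa2 the counts there were 3 against 15. The sense share in activator sorted cells was 82.6% (95% Wilson interval 62.9% to 93.0%), from 19 sense and 4 reversed insertions. Of these, Hoxa2 had 5 sense and 0 reversed, so 14 sense and 4 reversed were left without it. The interval counts neighbouring positions, such as the pairs at Hoxa2 and Hoxb1, as separate insertions.

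**Figure D4:**
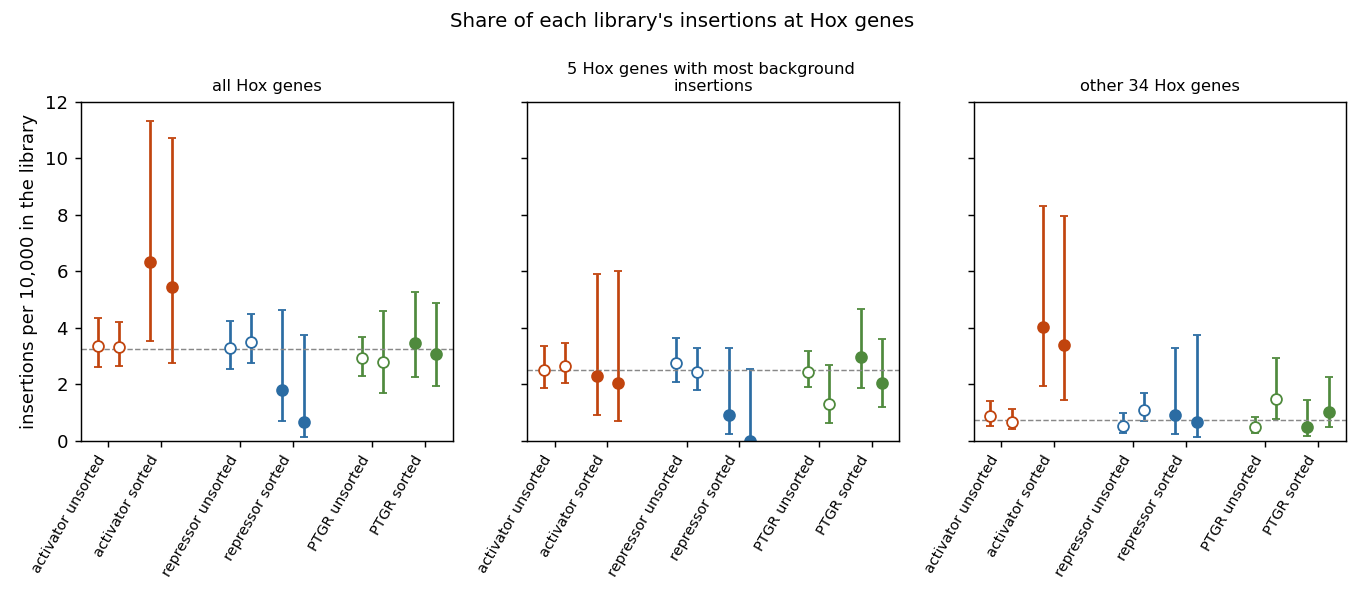
Insertions at Hox genes per 10,000 insertions of each library (y axis) for all 39 genes, the 5 with the most background insertions and the other 34; open points are unsorted and filled points sorted libraries, bars are 95% Wilson intervals and dashed lines the summed background. Both activator sorted libraries lie above all 6 unsorted libraries for the family (6.32 and 5.44) and for the 34 genes (4.02 and 3.40), and not for the 5 genes. Without Hoxa2, activator sorted replicate 2 would not lie above all 6 for the family or for the 34 genes.

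The repressor comparison asked which proteins lower GFP when brought beside an active promoter. No Hox gene reached 3 sorted insertions, so none was tested, against a background in which 192 of 2346 tested genes, or 8.18%, were called. The 5 insertions fell at Hoxa13, Hoxb9, Hoxd3 and Hoxd11 in replicate 1 and at Hoxc11 in replicate 2, with 1 each. The share was 1.80 per 10000 (95% Wilson interval 0.699 to 4.62) in replicate 1 and 0.658 (0.116 to 3.72) in replicate 2, both under the lowest unsorted library. The log2 ratio to the background was -1.27 with a counting error of 0.65. Only 16938 of the 37470 repressor sorted insertions lay outside called genes, and with the called genes left out of all totals the log2 ratio was -0.17. Hoxa13 had 0.449 and 0 per 10000 in the repressor sorted and 1.03 and 0.904 in the repressor unsorted libraries, a difference with an unadjusted p of 0.16 by edgeR. With edgeR and DESeq2, 0 Hox genes were called, and at an unadjusted p under 0.05 the count was also 0 by both tools among the 7 Hox genes that entered the fit.

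The PTGR comparison asked which proteins lower the reporter when tethered to its mRNA. The sorted libraries were the deepest of the 3 screens, and 4 Hox genes were tested, but none was called; over all genes 62 of 9303 were called, or 0.666%. At an unadjusted p under 0.05 the count of Hox genes was 0 as well, by Fisher's exact test, edgeR and DESeq2. Hoxa13 had 12 sorted insertions in replicate 1, 6 in replicate 2 and 122 in the background, 1.50 ± 0.667 per 10000 (SD, n = 2) against 1.06 ± 0.481 (SD, n = 6). Its log2 odds ratio was 0.34 with a standard error of 0.364 and an adjusted p of 0.73, and it was 0.72 in replicate 1 and -0.22 in replicate 2. Of the 21 sorted insertions at Hoxa13 in the 3 screens, 12 lay in the dense stretch described above.

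The other tested genes were also near their background. Hoxb9 had 1 and 3 PTGR sorted insertions, with a log2 odds ratio of -0.07 and a standard error of 0.760. Hoxc12 had 1 and 2, with -0.68 and 0.863. Hoxd13 had 2 and 1, with 0.43 and 0.896. Their adjusted p-values by Fisher's exact test were 0.88 to 1. Among the Hox genes with 1 or 2 PTGR sorted insertions, Hoxc13 had 2 and 0, and there was 1 each at Hoxa2, Hoxa4, Hoxa5, Hoxa7, Hoxb1, Hoxb4 and Hoxd3. The family's share was 3.44 per 10000 (95% Wilson interval 2.25 to 5.26) in replicate 1 and 3.07 (1.94 to 4.86) in replicate 2, both within the range of the unsorted libraries. The log2 ratio was 0.02 with a counting error of 0.24. By order, PTGR sorted counts against background were 5 and 16 in groups 1 to 3 and 4 and 26 in groups 4 to 8. Groups 9 to 13 had 30 and 288. In groups 1 to 3 this was 2.67 times the background share, a log2 ratio of 1.42 with a counting error of 0.74. A ratio above 1 there was thus not particular to the activator screen. Over the 8769 other genes with at most 10 background insertions, the PTGR ratio was 1.68. Repressor sorted counts in the same order were 1, 0 and 4.

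In the reversed assignment, in which the cassette lies in the opposite orientation to the one that tags the gene, no Hox gene was called in any screen, against 3.14%, 5.61% and 0.5% of tested genes in the activator, repressor and PTGR screens. The number of Hox genes tested there was 0, 1 and 3. In the repressor screen this was Hoxa13, with 4 and 1 reversed sorted insertions, against 89 reversed in the background (log2 odds ratio 0.88, adjusted p 0.76 by Fisher's exact test). The Fisher count at an unadjusted p under 0.05 was 0 in each screen.

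Genes that act with the Hox genes gave no call. Of the TALE cofactors, 8 genes of the Pbx, Meis and Pknox families were followed, with a median of 61.5 background insertions, and 2, 2 and 6 of them were tested in the activator, repressor and PTGR screens. Their log2 odds ratios ran from -1.11 to 1.31 and the lowest adjusted p was 0.52. Of the Cdx genes, homeobox genes that act upstream of Hox genes in the trunk, Cdx4 was tested in all 3 screens, with log2 odds ratios of -0.38, -1.77 and -0.27. Of the 11 genes beside the clusters that were in the tables, 3, 2 and 6 were tested in the activator, repressor and PTGR screens, where 4.64%, 8.18% and 0.666% of all tested genes were called. Only Cbx5 in the repressor screen was called, 1 of the 2 tested there. Cbx5 encodes the heterochromatin protein HP1α and lies next to HoxC. It had 65 and 47 repressor sorted insertions against 147 in the background, with a log2 odds ratio of 4.38, a standard error of 0.181 and an adjusted p of 2.5e-88 (Fisher's exact test).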

How the data were processed

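Inverse PCR and sequencing gave the integration sites of 12 libraries. The authors trimmed reads with Trim Galore 0.6.0, aligned first mates to mm10 with Bowtie2, dropped duplicates and poorly mapped reads using SAMtools 1.9, and gave every site the next exon downstream, first exons excepted, among protein-coding GENCODE transcripts. The deposited lists give a position and a distance in bp, without read counts. The deposited screen tables hold insertion counts summed over libraries, which equalled the counts made here for all 39 Hox genes in the background and, in the PTGR sorted libraries, for 38; their odds ratios and adjusted p-values are the authors' own comparison and were not used.

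Unique positions within 200 kb were counted per gene and library, and 2 sorted were compared with 6 unsorted libraries by one-sided Fisher's exact tests over the whole table (scipy 1.17.1, Benjamini-Hochberg). This test pools replicates, so its p-values leave out their spread. edgeR 4.0.16 and DESeq2 1.42.0, run within a screen on genes with at least 3 insertions, used the replicates. The methods call the replicates biological, and in the activator and repressor screens take unsorted and sorted cells from 1 transduction. In the activator and PTGR screens each sorted library shared more exact positions with the unsorted library of its own number (5.0% to 19.5% of its positions) than with the other (0.34% to 2.2%), so numbers were taken to pair libraries; in the repressor screen the shares were 8.2% and 8.2% against 9.9% and 5.0%. Deviations of same-numbered libraries correlated at 0.05, -0.0012 and 0.20 across genes in the 3 screens. Scripts were tested on simulated data, in which every raised gene had more background insertions than Hoxa2 and most Hox genes. That check therefore does not cover counts as low as those of Hoxa2. Intervals (95%, Wilson) and the limit for a count of 0 (3 counts) cover counting error only. The lengths from which insertions are assigned come from GENCODE M21, not the authors' release. Named genes were those with at least 3 sorted insertions in a screen or called, the richest in each cluster, and those at 0; other Hox genes named for 1 or 2 insertions were added after their values were seen, as was the rule for dense stretches. The values of 2 single genes are not reported here. The members and lists were chosen with earlier results of these data known.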

Additional observations from a re-analysis of the deposited data

Results flagged for a closer look

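Hoxa2 in activator unsorted replicate 2 stood apart from the other 5 unsorted libraries: it had 1 insertion (0.0482 per 10000) where they had 0. Such a gap test marks about 1 in 20 groups by chance, and a single count among zeros always meets it.

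The direction of the sorted libraries against the mean of the unsorted ones was opposite in both replicates of a pair of screens for several sums, and these differences were not tested. For all Hox genes the mean share was 5.88 per 10000 in activator sorted and 1.23 in repressor sorted libraries. The repressor log2 ratio was -0.17 with a counting error of 0.65 once called genes were left out of the totals. For HoxA the mean share was 2.90 in activator sorted, 0.225 in repressor sorted and 2.00 in PTGR sorted libraries, the repressor value lying opposite to both others. That repressor value rests on 1 insertion in replicate 1 and 0 in replicate 2, where 0 allows up to 1.97 per 10000, above the unsorted mean. With called genes left out, the repressor log2 ratio of HoxA was -1.25 with a counting error of 1.45. Hoxa2 gave 5 of the 9 HoxA insertions in activator sorted cells: without it, replicate 1 had 1 of 17397 (0.575 per 10000), under the unsorted mean of 1.23, so the activator direction in both replicates rests on Hoxa2, and with called genes left out the HoxA log2 ratio was 0.47 with a counting error of 0.73. For HoxB it was 1.83 in activator sorted and 0.225 in repressor sorted libraries, but the repressor log2 ratio of HoxB turned from -1.04 to 0.06 with called genes left out of the totals. For HoxD the mean share was 0 in activator sorted and 0.335 in PTGR sorted libraries. Both PTGR sorted shares (0.328 and 0.342) lay within the range of the unsorted libraries, 0.114 to 0.428. The activator count of 0 allows up to 0.935 per 10000, above the HoxD background share of 0.284. For Hoxa2 it was 1.59 in activator sorted and 0 in repressor sorted libraries, where a count of 0 allows up to 0.801 per 10000. The unsorted mean of Hoxa2 was 0.00803, far under that limit, so the repressor count of 0 could not show a direction.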

How the results depend on the processing

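With 32102, 37470 and 119540 sorted insertions in the activator, repressor and PTGR screens, 37, 39 and 35 Hox genes stayed under the 3 needed for a test, and the part of depth in this was not tested. The call of Hoxa2 made the activator count of Hox genes 1. It was 0 with positions within 1 bp or within 10 bp merged (both alternatives chosen after seeing the data), with edgeR without a replicate block, with edgeR with the replicate number as a block, and with DESeq2, and between 0 and 1 when a library was left out, 0 being without activator sorted replicate 2. Where odds ratios were computed in these, that of Hoxa2 stayed between 6.62 and 7.70 in log2. The exception was a lower bound of 5.40 without activator unsorted replicate 2, where no background insertion was left. The log2 fold change of Hoxa2 was 5.29 and 5.37 with edgeR and 6.08 with DESeq2. Without the replicate block, edgeR gave Hoxa2 an adjusted p of 0.031, and with the block 5.37 and 0.93. The block left the counts of called Hox genes at 0 in each screen. The repressor and PTGR counts of Hox genes were 0 in all 20 alternatives each.

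The activator log2 share ratio of the Hox genes (0.87) was 1.36 within 50 kb, 0.43 with no maximum distance and 0.69 with positions within 1 bp merged, and 0.75 to 0.97 when a library was left out. The repressor ratio (-1.27) was -0.17 with called genes left out of the totals, an alternative added after seeing the data, -0.39 with no maximum distance, and -2.30 to -0.85 when a library was left out. The PTGR ratio (0.02) was 0.18 against the same screen's unsorted libraries, -0.13 within 50 kb, -0.23 with no maximum distance, and -0.07 to 0.09 when a library was left out.

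Over all genes the PTGR screen gave 62 calls, and 40 against its own unsorted libraries, 121 at an adjusted p under 0.05, 28 with edgeR without the block, 33 with the replicate block and 20 with DESeq2. The activator and repressor counts stayed within 1.5 times the reported ones.

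Of single genes without a call, Hoxb9 in the activator screen turned from 1.41 to -0.19 within 50 kb; it was 2.35 against its own unsorted libraries (adjusted p 0.44), 2.20 with edgeR (0.76), 2.23 with the replicate block (0.93) and 2.54 with DESeq2 (0.42), and 0.71 to 1.95 when a library was left out. Hoxb9 in the PTGR screen turned from -0.07 to 0.68 against its own unsorted libraries, 0.55 with edgeR, 0.41 with the replicate block and 0.76 with DESeq2, and ran from -1.10 to 0.54 when a library was left out. Hoxd13 in the PTGR screen turned from 0.43 to -0.41 with no maximum distance and -0.045 with edgeR, and ran from -0.12 to 0.82 when a library was left out. Hoxa13 in the PTGR screen turned from 0.34 to -0.22 without PTGR sorted replicate 1, and ran up to 0.72. The cause of these changes was not tested.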

Other observations

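Beyond 200 kb from an acceptor, the limit used in the counts, 3 Hox genes had further insertions, all at the 5′ ends of clusters. Hoxd13 had 447 in the background, or 3.23 per 10000 listed positions, against 19 within 200 kb, so most of the insertions listed for Hoxd13 were left out of its count. Its sorted shares were 2.71, 2.41 and 2.35 per 10000 positions in the activator, repressor and PTGR screens. Hoxc13 had 124 in the background (0.896 per 10000 positions) and sorted shares of 1.23, 1.53 and 0.845. Hoxa13 had 13 in the background and 2 in the sorted libraries.

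Among all Hox insertions, 13 positions were listed in more than 1 library, 7 of them at Hoxa13.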
